A study of Caenorhabditis elegans with 2 samples.

Results

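The 81 cytoplasmic ribosomal protein genes of Caenorhabditis elegans were examined for chromatin regions precipitated with EYG-1, a homeodomain transcription factor named after Drosophila eyegone. They were taken by symbol from the WBcel235 (ce11) Ensembl annotation, as every protein-coding gene called rpl (large subunit), rps (small subunit) or rla (acidic stalk) with a number, and they are 81 of the 19973 protein-coding genes on the 6 chromosomes. A gene was given every region whose summit lay within 1000 bp of its annotated 5' end, so 1 region could belong to several genes.

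The series was a chromatin immunoprecipitation sequencing (ChIP-seq) experiment on whole hermaphrodite late embryos of the transgenic strain OP443, in which EYG-1 (gene eyg-1, also Y53C12C.1) carries GFP and FLAG at its C-terminus. Embryos were taken 4 hours after synchronization by egg bleaching, and sonicated chromatin was precipitated with an antibody to GFP, so each library mixes all cell types of the embryo. There was 1 group of 2 libraries, which the labels call biological replicates 1 and 3, and both carry the same tagged transgene; the promoter that drives it is not given in the sources used here, and the control library named in the labels was not analysed here. With 1 group there is no comparison between conditions, and all values below are descriptions without a test.

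Ribosomal proteins fold together with ribosomal RNA into the large subunit, which forms peptide bonds, and the small subunit, which reads the messenger RNA. Their genes are among the most highly transcribed protein-coding genes of growing cells, and in embryos they supply the machinery for all later protein synthesis. Many C. elegans messages receive a spliced leader, so an annotated 5' end is often the site of trans-splicing and the start of transcription lies further upstream.

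Sequences at the summits are shown first, because the windows of several genes share short words. The deposited list of optimal regions, those that passed the authors' threshold on reproducibility, held 14 regions at 13 of the genes. Of the 14 windows of 101 bp centred on these summits, 6 held TACGGTA on either strand (42.9%), against 10 of all 519 optimal windows (1.93%). Thus 6 of the 10 optimal windows with this word in the genome had a summit within 1000 bp of a ribosomal protein gene's 5' end. Of these 6 windows, those of rpl-20, rpl-43, rps-20 and rps-23 had a summit nearer to another gene's 5' end. The 5 shown here are on the strand of the ribosomal protein gene, 5′ to 3′, from the RefSeq sequence of WBcel235, with TACGGTA and GGAGCG (or their reverse complements) in capitals. They lie at chrIII:3867517-3867617 (rpl-3, plus strand), chrIII:4475570-4475670 (rps-1, plus), chrII:14154482-14154582 (rpl-43, plus), chrIV:12391298-12391398 (rps-23, minus) and chrIV:4749992-4750092 (rpl-20, minus).
rpl-3: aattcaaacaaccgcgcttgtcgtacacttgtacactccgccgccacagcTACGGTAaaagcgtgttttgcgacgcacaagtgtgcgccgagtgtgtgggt
rps-1: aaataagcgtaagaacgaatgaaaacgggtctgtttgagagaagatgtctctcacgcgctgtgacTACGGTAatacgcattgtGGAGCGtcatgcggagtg
rpl-43: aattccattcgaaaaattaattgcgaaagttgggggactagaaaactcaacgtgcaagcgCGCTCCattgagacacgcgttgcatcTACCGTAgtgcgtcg
rps-23: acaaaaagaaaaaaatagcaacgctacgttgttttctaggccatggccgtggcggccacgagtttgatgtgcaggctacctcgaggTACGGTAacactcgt
rpl-20: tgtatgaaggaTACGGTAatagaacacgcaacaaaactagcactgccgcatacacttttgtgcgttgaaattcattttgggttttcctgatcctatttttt
GGAGCG stood in 5 of the 14 windows, against 40 of 519 (7.71%). The rps-1 and rpl-43 windows above held both words, and they are the 2 optimal windows in the genome that do. The other 3 carriers are shown in the same way, at chrIV:654877-654977 (rpl-15, minus), chrIII:7854640-7854740 (rpl-35, plus) and chrIV:13240656-13240756 (rpl-12, minus).
rpl-15: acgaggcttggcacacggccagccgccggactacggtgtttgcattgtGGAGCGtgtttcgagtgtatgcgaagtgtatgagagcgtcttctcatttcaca
rpl-35: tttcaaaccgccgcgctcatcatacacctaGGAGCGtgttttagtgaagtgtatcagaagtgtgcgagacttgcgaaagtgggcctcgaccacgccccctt
rpl-12: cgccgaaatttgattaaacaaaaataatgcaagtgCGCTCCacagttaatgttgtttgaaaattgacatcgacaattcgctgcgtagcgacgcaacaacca

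In the rpl-3 window TACGGTA begins at the summit itself, and in the rpl-15 window GGAGCG overlaps the summit. The windows at rps-28, rpl-27, rps-26 and both at rps-24 held neither word. Both words were chosen after the sequences had been seen, so their shares carry no test, and a match is a description of letters, not a binding site.

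The same words were then counted at the highest region of each gene in the pooled list, which was called on both libraries together and holds background regions as well as peaks. The genes with a pooled region have 71 distinct highest summits, of which 11 held TACGGTA (15.5%) and 9 held GGAGCG (12.7%). Over all 24215 pooled summits the shares were 1.46% and 2.76%. Other genes with regions of high signal had lower shares. Among the highest summits of other genes that rank in the top 10% of the pooled list, 27 of 1217 held TACGGTA (2.22%) and 110 held GGAGCG (9.04%). Among the 40 distinct top 10% summits of ribosomal protein genes 8 held each word (20.0%). These 40 include the summits of the 13 genes with an optimal region, whose windows were in view when the words were chosen. The contrast is therefore not independent of that choice. Outside those genes, the top 10% carriers were rpl-5 and rpl-21 for TACGGTA, and rpl-1, rps-15 and rps-22 for GGAGCG. The carriers of TACGGTA had a median rank percentile of 98.4, against 90.3 for the 62 genes whose highest pooled window lacked it. Of the carriers, rpl-3, rpl-20, rpl-43, rps-1, rps-20 and rps-23 have optimal regions, and the words were chosen with such windows in view. The high percentiles of these carriers therefore follow from that choice. The other carriers were rpl-5 (percentile 98.7), rpl-21 (95.9), rps-18 (84.4), rpl-34 (65.1) and rpl-18 (62.0).

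The words were also counted upstream of the genes without regard to summits. In the 600 bp before the 5' end, a window chosen after seeing the data, 17 of the 81 genes held TACGGTA (21.0%) against 8.47% of all protein-coding genes. There 15 held GGAGCG (18.5%) against 9.37%. The counts were smaller in the window from 250 bp before to 50 bp after the 5' end. In it, 6 genes held TACGGTA (7.41%) against 4.10% of all genes, and 9 held GGAGCG (11.1%) against 5.18%. The 600 bp stretches contain the optimal windows of rpl-3, rpl-12, rpl-15, rpl-20, rpl-35, rps-1, rps-20 and rps-23, in which the words were seen. The counts are therefore not independent of the choice of words. Homeodomain proteins commonly recognise TAAT cores. TAATTA was found in 1 of the 71 pooled windows (1.41%) against 5.17% of all pooled windows, while a spaced TAAT palindrome was found in 0 of 71 against 0.463%. In the top 10% of the pooled list, which is closer to the 71 windows in G and C, TAATTA was found in 2.52% and the palindrome in 0.248%. Both are read on 2 strands at once, and their absence says only that these letters are not in the window. The median share of G and C in the 71 windows was 45.5%, against 36.6% in all pooled windows and 46.5% in the top 10% of the pooled list.

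In the 300 bp around each 5' end, from 250 bp before to 50 bp after it, runs of TTTTTT were found at 91.4% of the genes against 80.1% of all genes, and TTTCAG, which resembles the acceptor of splicing, at 70.4% against 51.7%. TATAAA was found at 27.2% against 38.0%, GATAAG at 7.41% against 16.8%, and CACGTG at 1.23% against 5.84%. Each of these words was counted on both strands.

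Regions were found at most ribosomal protein genes and ranked high. A pooled region lay within 1000 bp of 73 of 81 genes (90.1%), against 41.6% of all protein-coding genes, and the highest of them was in the top 10% of the pooled list by signal at 41 genes (50.6%), against 8.48% of all genes. An optimal region lay at 13 genes (16.05%), against 2.01%. Over the genes with a pooled region the median rank percentile, where 100 is the highest signal in the list, was 91.5 for ribosomal protein genes and 63.1 for all genes. Signal is the value of the authors' peak caller, has no common scale between lists, and was used to rank regions within each.

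Each library showed this on its own. The list of replicate 1 had a region at 74 genes (91.4%, against 45.6% of all genes), and 41 of them had 1 in its top 10% (50.6%, against 8.22%). The list of replicate 3 had a region at 68 genes (84.0%, against 42.8%), and 35 had 1 in its top 10% (43.2%, against 8.0%). A region in both replicate lists was found at 64 genes (79.0%, against 25.8%), and 23 genes were in the top 10% of both (28.4%, against 4.07%). The median rank percentile was 92.7 in replicate 1 and 90.8 in replicate 3, against 61.0 and 61.8 over all genes.

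**Figure D1:**
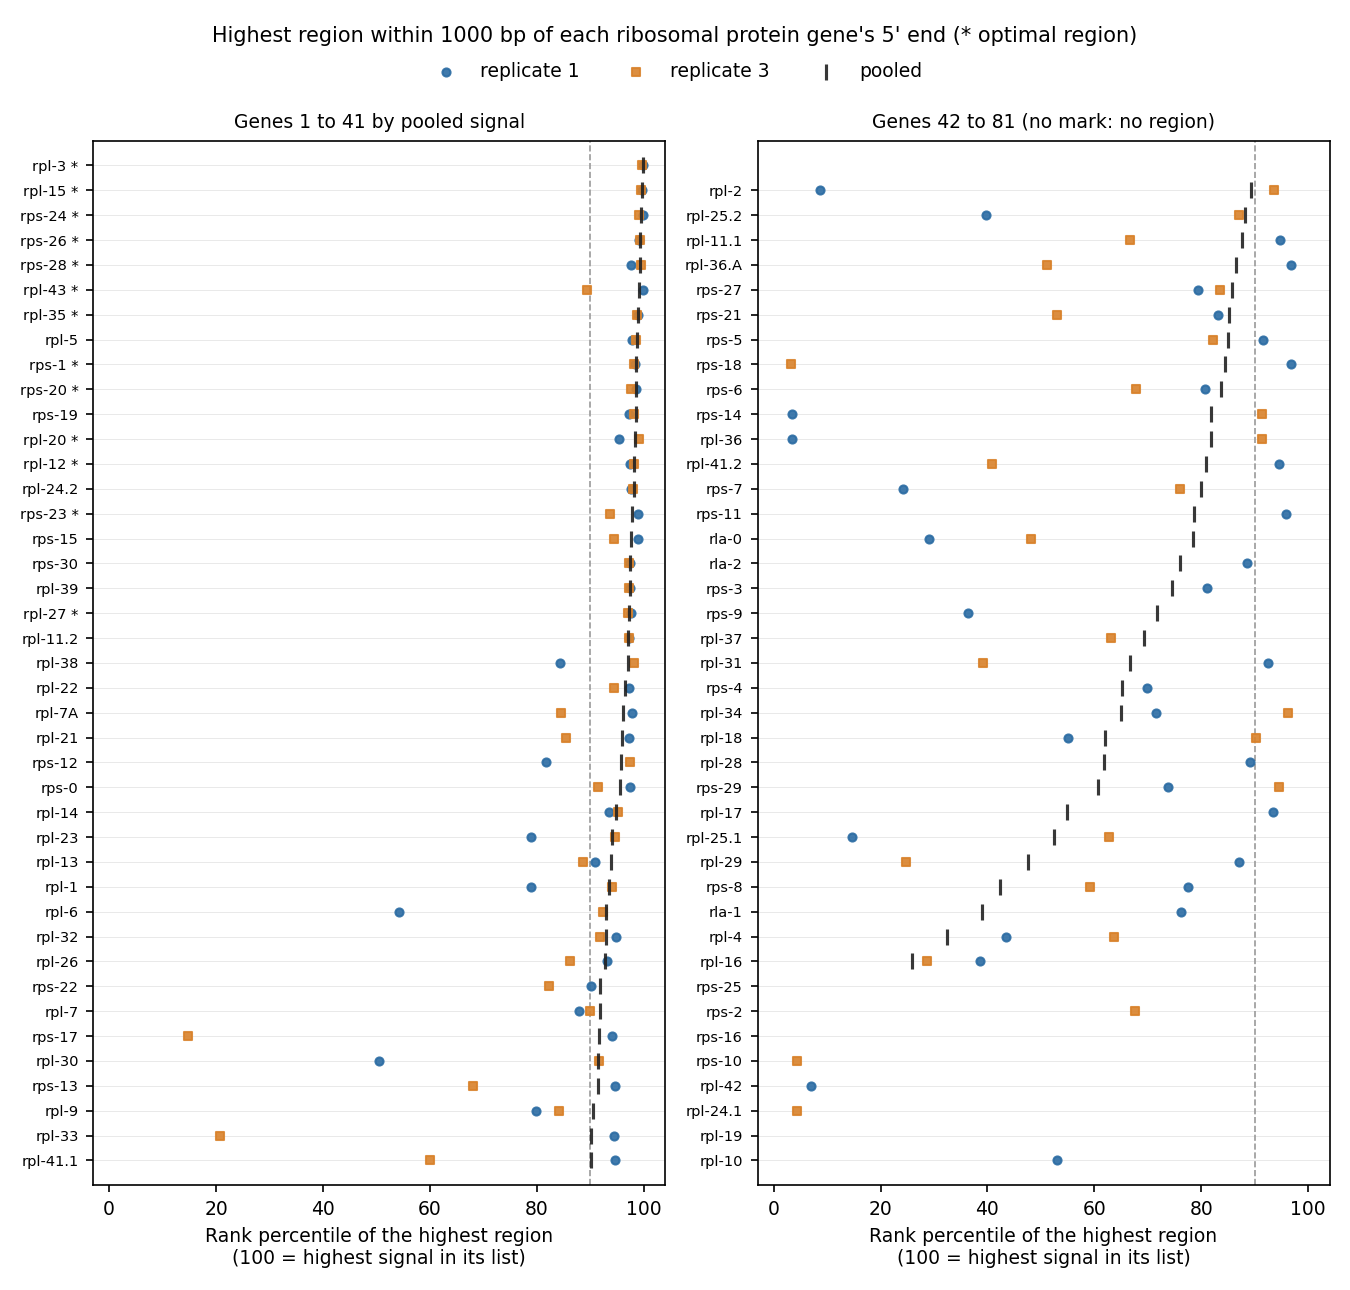
Rank percentile of the highest region within 1000 bp of the 5' end of each of the 81 ribosomal protein genes (x axis, 100 is the highest signal in the list), for replicate 1 (circles), replicate 3 (squares) and the pooled list (bars), ordered by the pooled list, with a dashed line at the top 10% and a star for an optimal region. The 41 genes in the left panel are those in the pooled top 10%, and the replicate marks spread widely lower in the order.

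Large-subunit and small-subunit genes ranked alike in the pooled list, with median percentiles of 92.7 and 91.5. Of 47 rpl genes, 43 had a pooled region, 27 were in its top 10% and 7 had an optimal region. The highest was rpl-3, whose protein reaches toward the peptidyl transferase centre. Its optimal region (chromosome III, 3867480 to 3867654, between protein-coding genes) had its summit 287 bp upstream, and the matching summits in the replicates lay 3 and 4 bp away, with a signal of 76.8 in replicate 1 (rank 28 of 27360 regions) and 93.3 in replicate 3 (rank 73 of 24519). It stood near the top of both lists.

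Next was rpl-15, which encodes a core protein of the large subunit. Its optimal summit lay 351 bp upstream (chromosome IV, 654699 to 655154), with a signal of 54.4 in replicate 1 (rank 111) and 69.0 in replicate 3 (rank 121). At rpl-35, whose protein lies by the exit of the peptide tunnel, the optimal summit was 444 bp upstream (chromosome III, 7854462 to 7854917), with a signal of 38.9 in replicate 1 (rank 287) and 45.7 in replicate 3 (rank 330). Ranks of both genes were alike in the 2 libraries.

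The stalk-base protein gene rpl-12 had the summit closest to its 5' end, 55 bp upstream (chromosome IV, 13240478 to 13240933), with a signal of 27.6 in replicate 1 (rank 682) and 38.6 in replicate 3 (rank 469). At rpl-20 the summit was 264 bp upstream (chromosome IV, 4749814 to 4750269), and nearer to the 5' end of Y17G9B.5, at 198 bp. Its signal was 21.4 in replicate 1 (rank 1290) and 52.8 in replicate 3 (rank 225). The rpl-20 region thus ranked higher in replicate 3, but was in the top 10% of both lists.

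At 2 further large-subunit genes the optimal region was also nearer to another gene's 5' end. The rpl-43 summit was 762 bp upstream (chromosome II, 14154304 to 14154759) and 159 bp from the 5' end of Y48B6A.1. Its signal was 73.9 in replicate 1 (rank 35) and 17.9 in replicate 3 (rank 3797), outside the top 10% there, where another region, 858 bp downstream of the 5' end, was the highest of the gene at 20.04. The rpl-27 region was the only optimal region on the downstream side, at 719 bp, which is beyond the end of this gene of 556 bp and 59 bp from the 5' end of egl-30, encoding a G protein alpha subunit; its signal was 27.8 in replicate 1 and 31.9 in replicate 3.

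Among small-subunit genes, 27 of 31 had a pooled region, 14 were in its top 10% and 6 had an optimal region. The rps-24 gene was the one member with 2 optimal regions, with summits 541 and 310 bp upstream (chromosome IV, 385118 to 385573 and 385349 to 385804). Replicate 1 had a summit at each, with signals of 68.0 (rank 51) and 50.6 (rank 150). Replicate 3 had 1 summit, 2 bp from the nearer of them, with a signal of 53.6 (rank 218), and none within 100 bp of the other.

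At rps-28, whose protein lines the exit channel of the messenger RNA, the optimal summit was 400 bp upstream (chromosome IV, 1659063 to 1659518), with a signal of 28.1 in replicate 1 (rank 641) and 74.0 in replicate 3 (rank 107). At rps-1, on the platform near the same channel, it was 298 bp upstream (chromosome III, 4475392 to 4475847), with a signal of 33.4 in replicate 1 (rank 424) and 38.8 in replicate 3 (rank 464). The nearest replicate 3 summit was 103 bp away from the rps-1 summit, just past the 100 bp used to match summits.

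The remaining 3 small-subunit genes lay opposite a divergent gene whose 5' end was nearer to the summit. At rps-26, whose protein contacts the messenger RNA at the exit channel, the summit was 468 bp upstream (chromosome I, 14759234 to 14759689), inside an exon of the ciliary gene tmem-107, 11 bp from its 5' end and within 100 bp of the snoRNA gene F39B2.14, with a signal of 44.1 in replicate 1 (rank 225) and 60.6 in replicate 3 (rank 169). It was the only one of the 14 optimal regions with a tRNA or snoRNA gene this close, and without such regions 12 genes had an optimal region. At rps-20 the summit was 252 bp upstream (chromosome I, 14469127 to 14469582) and 145 bp from ekl-4, with a signal of 34.1 in replicate 1 and 34.4 in replicate 3.

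At rps-23, which encodes a protein of the decoding centre, the summit was 295 bp upstream (chromosome IV, 12391120 to 12391575) and 239 bp from dpm-3, a gene for a subunit of dolichol-phosphate mannose synthase. Its signal was 39.5 in replicate 1 (rank 272) and 23.7 in replicate 3 (rank 1563), within the top 10% of both. With rpl-20, which faces Y17G9B.5 at 198 bp, rpl-43 and rpl-27, 6 of the 13 genes had an optimal region nearer to another gene's 5' end. Counting a summit for the nearest 5' end alone left 7 genes (rpl-3, rpl-12, rpl-15, rpl-35, rps-1, rps-24 and rps-28), against 1.38% of all genes.

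The 14 optimal regions were not high within the optimal list: their median signal was 83.4 against 91.6 for all 519, and 6 of the 14 were above that median. Of the 14, 12 had a summit within 100 bp in both replicate lists, 13 were upstream of the ribosomal protein gene, and 13 lay between protein-coding genes. Counted by gene, the highest optimal region was upstream at 12 of the 13 genes (92.3%), close to the 87.3% of all 402 genes with an optimal region. For the other counts no share over all optimal regions is given here. Among the 10 genes with the highest pooled signal, rpl-5, which encodes a protein of the central protuberance, was the only 1 without an optimal region; its pooled signal was 77.2 (rank 322), and its signal was 29.4 in replicate 1 and 42.8 in replicate 3.

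The 3 stalk genes had pooled regions with a median percentile of 76.0, and none was in the top 10%. At rla-0, for the protein that anchors the stalk, the signal was 8.52 in replicate 1 (percentile 29.0) and 12.02 in replicate 3 (percentile 48.2). For the acidic proteins, rla-1 and rla-2 had a region in replicate 1, with signals of 12.8 and 16.01, and none in replicate 3. All 3 were therefore lower than the median rpl or rps gene, whose pooled percentiles were 92.7 and 91.5.

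Agreement between the libraries was moderate. Over the 64 genes with a region in both, Spearman's rho of the percentiles was 0.49 and Pearson's r of log2 signal 0.53, across genes that share the libraries and are not replicates; over 5159 protein-coding genes they were 0.44 and 0.55. The median difference in percentile was 11.1 for ribosomal protein genes and 17.9 for all genes. The highest summits lay within 100 bp of each other at 33 of the 64 genes (51.6%), against 31.4% of all genes.

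Some genes, chosen here after their values were seen, had a highest region that ranked high in 1 library and low in the other, and the summits were often apart. At rps-18 the percentile was 96.7 in replicate 1, with the summit 615 bp upstream, and 3.19 in replicate 3, with the summit 697 bp upstream. At rps-17 it was 94.1 in replicate 1 (262 bp upstream) and 14.7 in replicate 3 (451 bp upstream). The opposite order was seen at rpl-2, with 8.76 in replicate 1 (180 bp downstream) and 93.6 in replicate 3 (446 bp upstream). At rpl-36 the percentile was 3.51 in replicate 1 (45 bp upstream) and 91.4 in replicate 3 (378 bp upstream), so the values of rpl-2 and rpl-36 belong to different regions in the 2 libraries. Because these genes were picked, they do not show whether either order was the more common over all ribosomal protein genes.

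**Figure D2:**
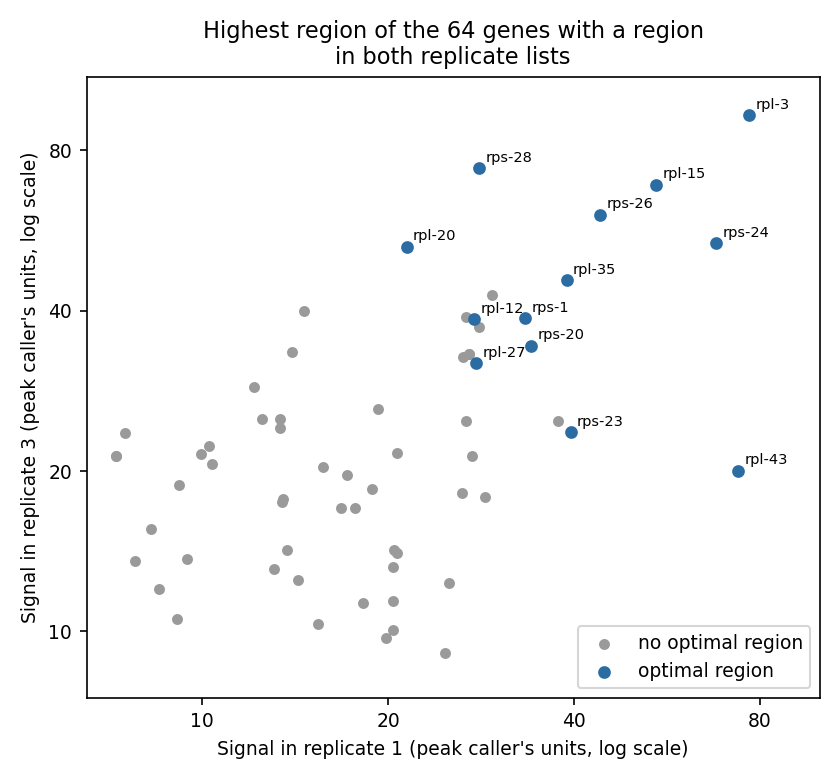
Signal of the highest region of each of 64 ribosomal protein genes in replicate 1 (x axis) and replicate 3 (y axis), in the peak caller's units on log scales, with the 13 genes that have an optimal region named. Most of the named genes lie toward high signal in at least 1 library, rpl-12 and rpl-27 lie among genes without an optimal region, and rpl-43 is high in replicate 1 alone.

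A region was missing from 1 or more of the pooled and replicate lists at 17 genes. Of these, 8 had a region in the pooled list and replicate 1 (rla-1, rla-2, rpl-17, rpl-28, rps-3, rps-4, rps-9 and rps-11), rpl-37 had 1 in the pooled list and replicate 3, rpl-10 and rpl-42 in replicate 1 alone, and rpl-24.1, rps-2 and rps-10 in replicate 3 alone. The 3 genes with none in any of the 4 lists were rpl-19, rps-16 and rps-25, of which rps-16 encodes a protein that touches the transfer RNA in the peptidyl site. The nearest pooled summit lay 1019 bp from rpl-19, 1812 bp from rps-16 and 2241 bp from rps-25, so rpl-19 was just outside the limit. Lists without a region at a gene are not evidence of no binding there.

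The summits were narrowly placed. At the 73 genes with a pooled region the highest summit had a median position of −294 bp from the 5' end (quartiles −394 and −217), against −165 bp (quartiles −462 and 228) over all genes. It was upstream at 69 of the 73 (94.5%), against 64.2% of all genes, and between 500 and 100 bp upstream at 60 (82.2%), against 34.1%. The 100 bp bin that held most of them, from 300 to 200 bp upstream, held 24 genes (32.9%), against 9.90% of all genes.

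**Figure D3:**
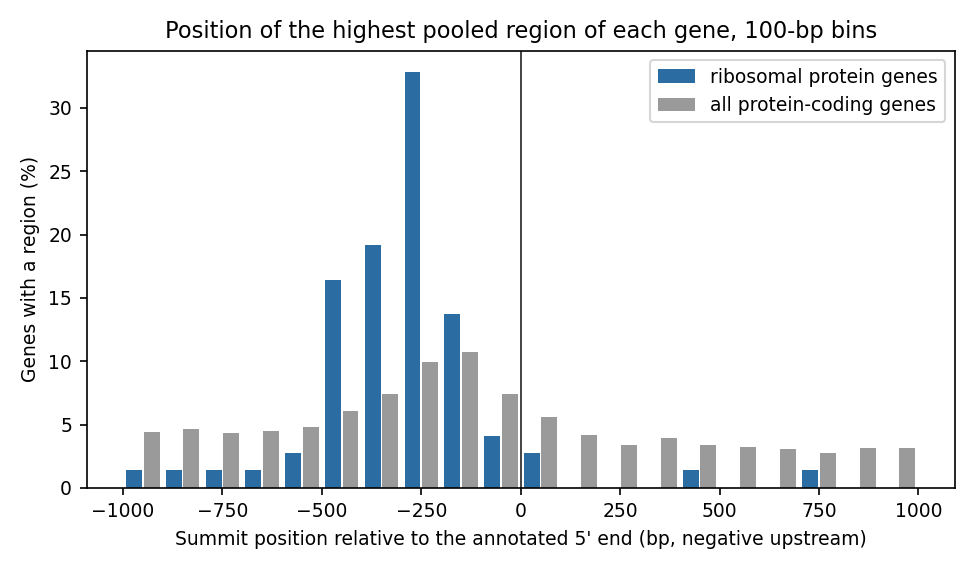
Position of the highest pooled summit relative to the annotated 5' end (x axis, bp, in 100 bp bins, negative upstream) as a percentage of the genes with a pooled region (y axis), for 73 ribosomal protein genes (blue) and 8311 protein-coding genes (grey). The ribosomal protein genes gather between 500 and 100 bp upstream, while all genes spread over both sides.

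Most ribosomal protein genes are short and many share their upstream space. The median annotated length was 754 bp, against 2027 bp for all protein-coding genes. A gene on the other strand started within 1000 bp upstream at 48 of the 81 (59.3%), against 17.7% of all genes, and such genes had regions more often in general: 54.1% of all divergent genes had a pooled region and 20.2% had 1 in the top 10%. Among the 48 divergent ribosomal protein genes the shares were 93.8% and 56.2%. Among the 33 without a divergent neighbour they were 84.8% and 42.4%, against 38.9% and 5.96% of all such genes, so both classes of ribosomal protein gene stood above the genes of their class.

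Some of these divergent pairs were of ribosomal protein genes. The rpl-39 and rps-30 genes start 499 bp apart and share 1 pooled region (chromosome V, 7776197 to 7776652) with a signal of 57.5 (rank 643), and it was in the top 10% of both replicates, with 27.02 in replicate 1 and 33.2 in replicate 3. The rpl-36 and rps-14 genes start 663 bp apart and share 2 pooled regions on chromosome III, with signals of 25.8 and 17.8. The rps-10 and rpl-24.1 genes start 610 bp apart and share 1 region of replicate 3 alone, with a signal of 9.15 (percentile 4.35). A shared region cannot be assigned to either gene.

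By chromosome, pooled regions were found at 22 of 25 genes on chromosome I (52.8% of all protein-coding genes there), 8 of 10 on II (41.9%), 18 of 18 on III (54.4%), 16 of 18 on IV (39.99%), 7 of 8 on V (31.1%) and 2 of 2 on X (38.3%). Optimal regions were found at 3 of the genes on I (2.36% of all genes there), 1 on II (2.0%), 3 on III (3.07%), 6 on IV (1.80%), 0 on V (1.28%) and 0 on X (2.23%). Of the 73 genes, 49 had 1 pooled region, 21 had 2, 2 had 3 and 1 had 4. A snoRNA gene lay inside 13 of the 81 genes, of which 8 were in the pooled top 10%, beside 33 of the 68 without a snoRNA gene. The median percentiles of these classes were close, at 92.3 and 90.5. The share over all protein-coding genes that hold a snoRNA gene is not given here.

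Genes that share a number had unequal values. Of the L11 pair, rpl-11.2 had a pooled signal of 55.1 (percentile 97.1) and rpl-11.1 of 29.3 (percentile 87.6), and rpl-11.2 was also the higher in both replicates. For rpl-24.2 the pooled signal was 67.2 (percentile 98.1), and rpl-24.1 had no pooled region. Of the L25 pair, rpl-25.2 had 29.9 (percentile 88.3) and rpl-25.1 had 18.5 (percentile 52.4). The neighbours rpl-41.1 and rpl-41.2 shared a region with a signal of 25.4 (percentile 81.0), which was the highest of rpl-41.2. The highest of rpl-41.1 was another region, with a signal of 31.9 (percentile 90.1). Whether reads could be split between the rpl-41 copies is not known here.

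The other genes of translation were intermediate or alike. Of 39 translation factor genes, 32 had a pooled region (82.1%), 18 were in its top 10% (46.2%) and 4 had an optimal region (10.3%), with a median percentile of 92.3. Of 32 ribosome biogenesis genes, out of 36 symbols searched, 27 had a pooled region (84.4%), 10 were in its top 10% (31.2%) and 2 had an optimal region (6.25%), with a median percentile of 80.5. The translation factor genes thus ranked close to the ribosomal protein genes, and the biogenesis genes lower.

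Genes of the separate mitochondrial ribosome were lower again by these shares. Of 70 of them, 49 had a pooled region (70.0%), 14 were in its top 10% (20.0%) and 3 had an optimal region (4.29%), with a median percentile of 82.8. Of 31 aminoacyl-tRNA synthetase genes, whose products load amino acids onto transfer RNA, 23 had a pooled region (74.2%), 7 were in its top 10% (22.6%) and 2 had an optimal region (6.45%), with a median percentile of 77.1. Every one of these lists was above the share of all protein-coding genes in all 3 counts. The highest summits had median positions of −171 bp at mitochondrial ribosomal, −203 bp at synthetase, −207 bp at biogenesis and −237.5 bp at translation factor genes, each nearer to the 5' end than the −294 bp of the cytoplasmic ribosomal protein genes; these differences were not tested.

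**Figure D4:**
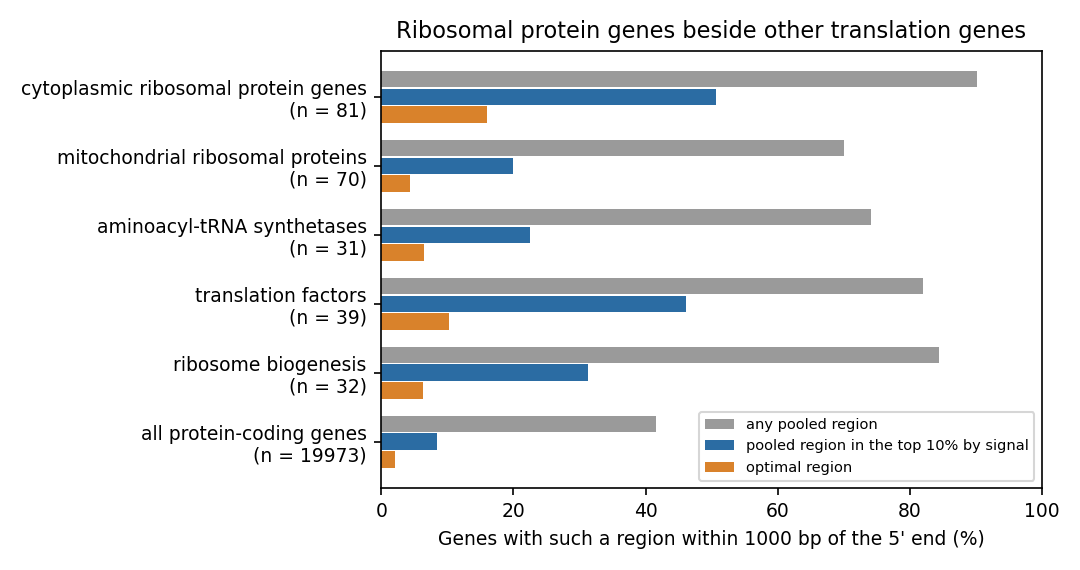
Percentage of genes (x axis) with any pooled region, with a pooled region in the top 10% by signal, and with an optimal region within 1000 bp of the 5' end, for 81 cytoplasmic ribosomal protein genes, 4 other lists of translation genes and all 19973 protein-coding genes. Cytoplasmic ribosomal protein genes have the longest bar of each kind, and all protein-coding genes the shortest.

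Ribosomal proteins whose symbols do not follow the rule gave mixed values. For rack-1, a scaffold protein of the small subunit, the pooled summit lay 262 bp upstream with a signal of 31.9 (percentile 90.1), with 27.9 in replicate 3 (percentile 96.0) and, at another summit, 12.3 in replicate 1 (percentile 72.3). For ubl-1, which encodes a small-subunit protein fused to a ubiquitin-like protein, the pooled signal was 20.7 (percentile 64.9), with 8.44 in replicate 1 and 12.9 in replicate 3. For ubq-2, a fusion of ubiquitin and a large-subunit protein, a region was found in replicate 3 alone, with a signal of 14.3 (percentile 68.6). None of the 3 had an optimal region.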

How the data were processed

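ChIP-seq peak lists of 2 libraries were used as deposited, in the ce11 build. According to notes that accompany the libraries, the replicate lists were called on 1 library each against a control, the pooled list on both together, and the optimal list was derived from these with a cutoff on irreproducible discovery rates. Aligner, peak caller, versions and cutoff are not given in the sources used here. For each region the signal is the value of the authors' peak caller, and the score that the replicate and pooled lists hold was taken as the −log10 of a q-value from the file format, as deposited. Whether the score of the optimal list, as deposited by the authors, rests on a q-value is not known here, and it was not used. Regions have fixed widths, mostly 456 bp (pooled and optimal) or 450 bp (replicates). Read counts were not used, so depth is unknown and no interval is given.

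Summits were compared with the gene 5' ends of Ensembl release 115, counted from 1, with Python 3.11.15 and pandas 2.3.3, and the assignment was checked on simulated summits. Genes named are those with an optimal region, the 10 with the highest pooled signal, those with no region, 3 ribosomal proteins outside the symbol rule and the nearer neighbours of optimal summits; others were chosen after their values were seen. The members and gene lists were chosen with earlier results of these data known. The alternatives were the distance limit, the 5' end used, the nearest gene alone, signal and score thresholds, single replicates, summits upstream alone and RNA genes left out; the last 2 and the 600 bp windows were chosen after seeing the data. The same lists in ce10 were not used.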

Additional observations from a re-analysis of the deposited data

How the results depend on the processing

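With a limit of 500 bp, 69 of 81 genes had a pooled region (28.5% of all genes) and 11 an optimal region (1.41%); with 2000 bp these were 78 (57.9%) and 14 (2.89%), so the share over all genes moved more than the members' count. Counting each summit for the nearest protein-coding 5' end alone left 51 of 81 genes with a pooled region (36.3% of all genes) and 7 with an optimal region (1.38%). It also left 37 with a region in both replicate lists (20.5%), and a median pooled percentile of 85.1 (60.04 over all genes). Among the regions of the optimal list with the highest signal, down to its median, 5 genes were counted (1.00% of all genes). With a q-value score of at least 2, which 1347 of the 24215 pooled regions reach, 27 genes had a pooled region, against 5.34% of all genes. In these cases fewer regions or genes can count by construction. With 519 regions of highest signal taken from a single replicate in place of the optimal list, between 10 genes (without replicate 3, 2.12% of all genes) and 13 genes (without replicate 1, 1.95%) were counted. The median percentile in single replicates lay between 90.8 and 92.7, against 61.8 and 61.05 over all genes. With upstream summits alone, chosen after seeing the data, the median percentile was 91.6 against 66.5 over all genes. No paired analysis was possible because there is 1 group. The precision of each signal is unknown without read counts, and 2 libraries give no estimate of the spread beyond their own difference.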
